A study of Mus musculus with 64 samples.

Results

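Axon guidance ligands and receptors were followed in single cells sorted from the mouse dentate gyrus. The set held every gene whose symbol names a semaphorin, a plexin, a neuropilin, an ephrin, an Eph receptor, a Slit, a Robo, a netrin, Dcc or an Unc5 receptor, and it came to 69 of the 23313 genes in the files. Its 35 ligands were 20 semaphorins, 5 A-type and 3 B-type ephrins, 3 Slits and 4 netrins. Its 34 receptors were 9 plexins, 2 neuropilins, 9 EphA and 5 EphB receptors, 4 Robo receptors, and 5 netrin receptors (Dcc and the Unc5 genes). The members were chosen by symbol and not by any measured value.

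The cells came from mice of the Dcx-dsRed strain, a transgenic line whose red fluorescent protein is made under the control of the doublecortin gene, a gene of newborn neurons. They were taken at 6 to 7 weeks of age, sorted for the red signal, captured one by one on a microfluidic chip and sequenced as polyadenylated RNA. The labels give 64 cells as a single group of individual immature neurons, with no stage, treatment, litter or animal named, so the cells count as 1 biological sample and no test between kinds of cell was made. The question, from the title, is how neurons mature during neurogenesis.

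Guidance cues steer growing axons and migrating cells. Semaphorins act through plexins, with neuropilins as co-receptors for the secreted forms. Ephrins and Eph receptors are both held in the membrane and can signal in both directions at a contact between cells. Slits act on Robo receptors, and netrins attract through Dcc and repel through the Unc5 receptors. In the dentate gyrus such genes are known from the growth of mossy fibres, the axons of granule neurons, and in the white matter from the migration and maturation of oligodendrocyte-lineage cells.

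Cells were grouped with the guidance and pathway genes left out of the clustering. Of the 64 cells, 20 were granule-lineage-like (31.3%, exact 95% interval 20.2% to 44.1%), 11 were stem cell or astrocyte-like, called astrocyte-like for short (17.2%, 8.90% to 28.7%), and 33 were oligodendrocyte-like (51.6%, 38.7% to 64.2%). The label of immature neuron was met in part. Dcx itself was detected in 6, 7 and 11 cells of these clusters in that order. Detected means 1 TPM or more (a length-normalised abundance that adds up to the same total in every cell). Sox11, read beside Dcx, was more widely detected, in 20 of 20, 11 of 11 and 27 of 33 cells. Its medians were 101, 186 and 11.0 TPM. A list of 12 early neuroblast markers summed to medians of 267, 434 and 55.2 TPM in the same clusters. Estimated depth ran from 456427 to 3984564 reads per cell (median 1061548), in a deeper class of libraries (7, 1 and 13 cells) and a shallower class (13, 10 and 20 cells) with none between 1283370 and 1897381 reads, and the labels do not say whether the classes are batches. In 17 of the 64 libraries the marker score of another cluster was high as well, and 15 of these were oligodendrocyte-like. The summed markers of the granule lineage ran from 55.2 to 9139 TPM (median 2867) in the oligodendrocyte-like cells, against 7366 to 15386 TPM (median 9899) in the granule-lineage-like cells. The summed stem cell or astrocyte markers had medians of 2836 TPM in granule-lineage-like and 2644 TPM in oligodendrocyte-like cells, against 30173 TPM in astrocyte-like cells. Of these 16 markers, Aldoc, Gja1, Slc1a2 and Apoe were detected in all 20 granule-lineage-like cells, of which 2 counted as mixed. Their levels could be low, down to 3.76 TPM for Gja1 and 2.6 TPM for Apoe. The other markers of the list were in 2 (Aldh1l1) to 19 of the 20 cells, with Hes5 in 3, Gjb6 in 6, and Gfap and Acsbg1 in 9 each. Libraries not counted as mixed are therefore not free of other markers. The part of the 17 mixed libraries in the differences below was not tested, and most of the genes that lead each set are also given without them.

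Of the 69 guidance genes, 60 were detected in at least 1 cell and 47 in at least 10% of cells (22 ligands and 25 receptors). Only 13 were detected in at least 50% of cells. The 13 genes seen in fewer than 10% of cells were Epha1, Epha3, Ephb6, Plxnd1, Robo1, Efna3, Efna4, Ntn1, Ntn5, Sema3a, Sema3b, Sema3e and Slit2. The 9 genes detected in no cell were Epha2, Epha8, Ephb4, Robo4, Ntn4, Sema3f, Sema3g, Sema4c and Sema6c, where 0 of 64 cells allows a share of up to 4.69%. Every plexin, every neuropilin and every netrin receptor was detected somewhere. The netrins were the least represented family, with Ntn3 alone reaching 10% of cells.

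A cell held transcripts of few of these genes at a time. The count of guidance genes detected per cell was 9 to 28 (median 18) in granule-lineage-like cells, 4 to 19 (median 16) in astrocyte-like cells and 8 to 28 (median 18) in oligodendrocyte-like cells. The summed receptor level was 103 to 1864 TPM (median 790) in granule-lineage-like cells, 6.63 to 2350 TPM (median 537) in astrocyte-like cells and 51.9 to 872 TPM (median 356) in oligodendrocyte-like cells. The summed ligand level was 48.6 to 1214 TPM (median 369), 81.9 to 965 TPM (median 342) and 96.1 to 3413 TPM (median 572) in the same 3 clusters. By median, receptors outweighed ligands in the first and second of these clusters and ligands outweighed receptors in the oligodendrocyte-like one, though the ranges overlapped throughout.

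**Figure D1:**
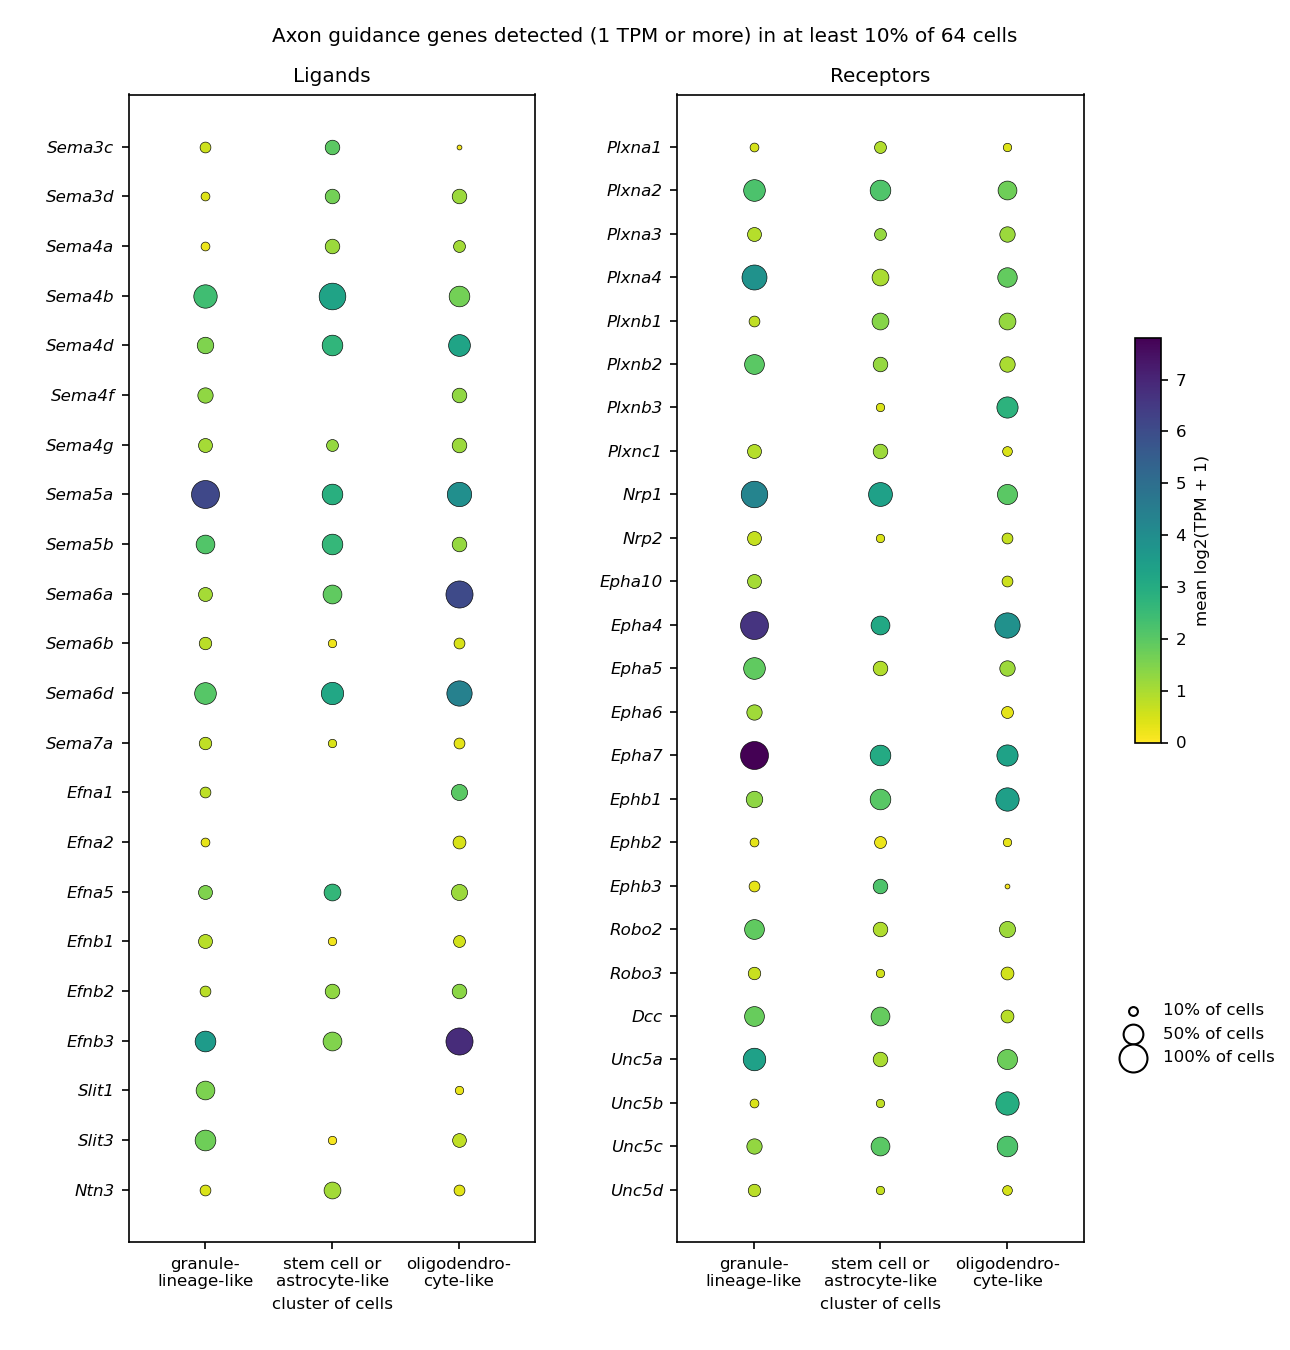
Each circle is 1 of the 47 guidance genes detected in at least 10% of 64 cells, in 1 of 3 clusters; its area gives the share of cells at 1 TPM or more and its colour the mean log2(TPM + 1). Epha7, Epha4 and Sema5a filled all 20 granule-lineage-like cells, and Sema6a and Efnb3 31 of 33 oligodendrocyte-like cells.

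The clusters differed in which guidance genes were high. A gene was counted as higher or lower in a cluster when its mean log2(TPM + 1) differed by at least 1 from that of all other cells. Among the 47 guidance genes, 8 (17.0%) were higher in the granule-lineage-like cells, beside 21.5% of the 10732 genes examined, and 7 (14.9%) were lower, beside 9.88% of all genes. In the astrocyte-like cells 5 (10.6%) were higher, beside 9.12% of all genes, and 12 (25.5%) were lower, beside 28.7%. In the oligodendrocyte-like cells 8 (17.0%) were higher, beside 13% of all genes, and 6 (12.8%) were lower, beside 10.9%. Each share lay near that of all genes, so these counts are no result about guidance genes as a set, and the results lie in the single genes. The filter asked for detection in at least 7 cells. Outside the cluster where they were higher, Plxnb3, Unc5b, Efna1, Slit1, Ephb3 and Sema3c were detected in 1 to 4 cells. They passed the filter only through that cluster, so their being counted as higher there is no independent support. The median difference of the 47 was 0.11 in granule-lineage-like cells, -0.14 in astrocyte-like cells and -0.24 in oligodendrocyte-like cells, beside 0.20, -0.45 and -0.06 for all genes.

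**Figure D2:**
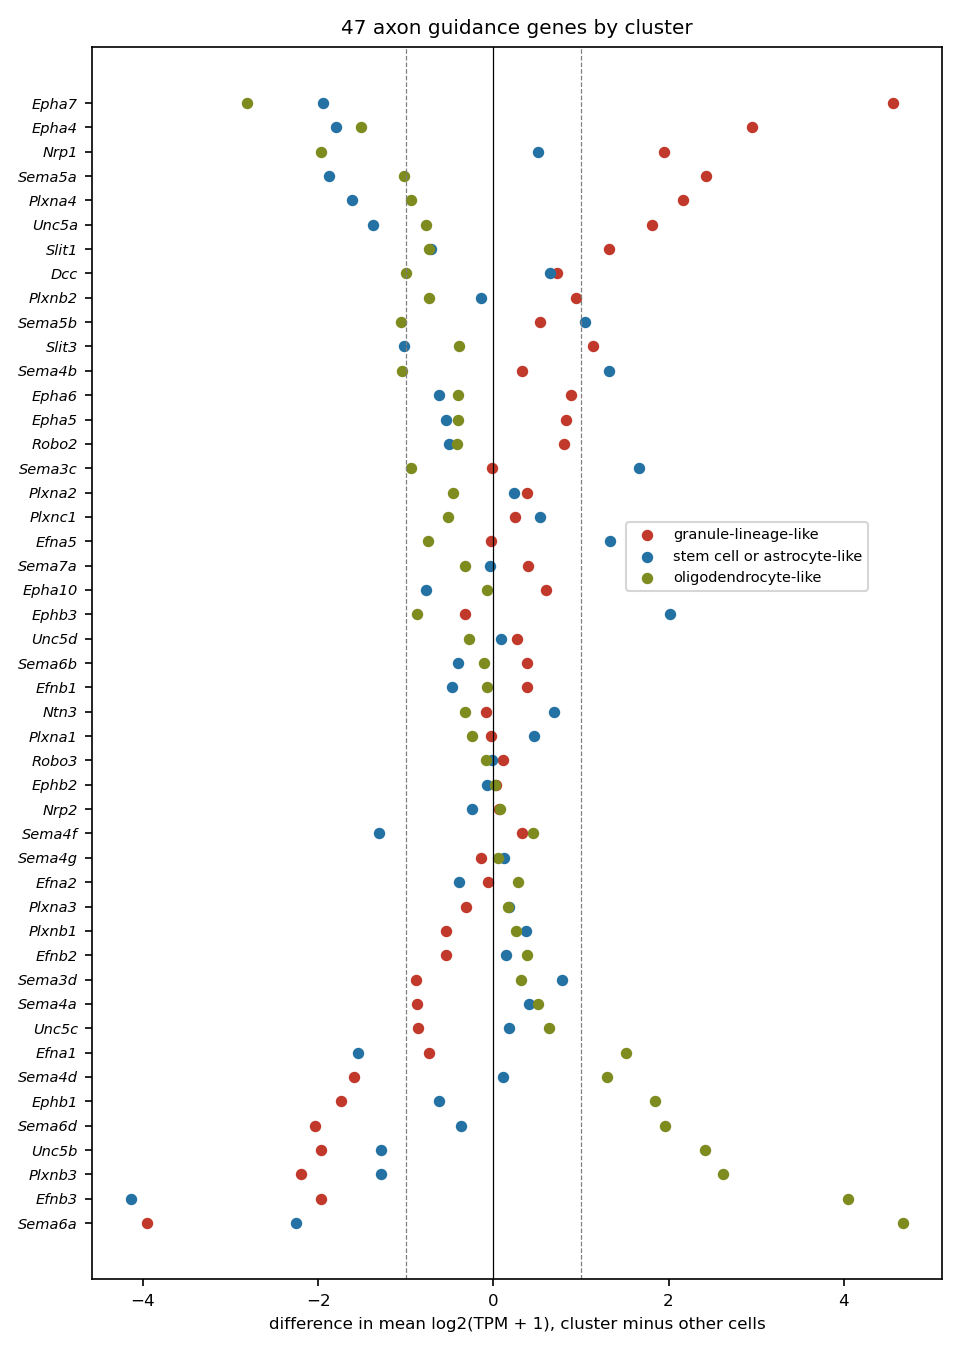
Difference in mean log2(TPM + 1) between the cells of each cluster and all other cells, for the 47 guidance genes detected in at least 10% of cells, ordered from those higher in granule-lineage-like cells to those higher in oligodendrocyte-like cells; dashed lines mark a difference of 1. Epha7 lies at 4.56 for the granule-lineage-like cells at the top, and Sema6a at 4.68 for the oligodendrocyte-like cells at the bottom.

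EphA receptors led the granule-lineage-like cells. Epha7, a receptor tyrosine kinase for A-type ephrins, was detected in all 20 of these cells (exact 95% interval 83.2% to 100%), at 10.9 to 863 TPM (median 351). Of 11 astrocyte-like cells, 6 had it, at 0 to 805 TPM (median 1.21). Of 33 oligodendrocyte-like cells, 19 had it, at 0 to 440 TPM (median 8.12). The ranges overlapped: 3 astrocyte-like cells and the higher oligodendrocyte-like cells reached granule-lineage levels. The mean log2 level of granule-lineage-like cells exceeded that of the others by 4.56, the largest positive difference of the 47 genes in that cluster. Without the mixed libraries the oligodendrocyte-like median was 0.88 TPM, with 7 of 18 cells detected, and the difference was 5.46.

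Epha4, the Eph receptor that binds ephrins of both classes, was likewise detected in all 20 granule-lineage-like cells, at 22.6 to 471 TPM (median 92.1). It was in 5 of 11 astrocyte-like cells, at 0 to 1159 TPM (median 0.97), and the highest value of all came from cell 57 of that cluster. It was in 27 of 33 oligodendrocyte-like cells, at 0 to 347 TPM (median 20.9), or a median of 5.54 TPM in the 18 without a second programme. The groups overlapped, and the granule-lineage-like mean lay 2.95 above the others. Of the remaining EphA receptors, Epha5 was in 12 of 20, 3 of 11 and 10 of 33 cells of the clusters, with a median of at most 1.43 TPM in each, and its difference of 0.83 in granule-lineage-like cells was under the size counted.

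Summed over the family, EphA receptor transcripts were at 62.0 to 1049 TPM (median 512) in granule-lineage-like cells, 0 to 1964 TPM (median 4.15) in astrocyte-like cells and 0.27 to 532 TPM (median 80.5) in oligodendrocyte-like cells. Epha7 made up 65.8% of the family total in the granule-lineage-like cells. The stretches just before the transcription starts of Epha4 (chr1:77515089-77515338, minus strand) and Epha7 (chr4:28812881-28813130, plus strand) are shown because these genes were detected together in every granule-lineage-like cell. They are the 250 bases before the start in RefSeq's promoter table for GRCm38.p6, a different build from the mm9 named in the submitters' processing notes, and capitals mark GGGCGG or its reverse complement CCGCCC, the GC box.
Epha4: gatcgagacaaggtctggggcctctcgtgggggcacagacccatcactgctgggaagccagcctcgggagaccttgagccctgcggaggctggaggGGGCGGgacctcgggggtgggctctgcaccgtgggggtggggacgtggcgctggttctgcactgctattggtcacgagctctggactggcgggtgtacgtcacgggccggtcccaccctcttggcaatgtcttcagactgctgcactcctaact
Epha7: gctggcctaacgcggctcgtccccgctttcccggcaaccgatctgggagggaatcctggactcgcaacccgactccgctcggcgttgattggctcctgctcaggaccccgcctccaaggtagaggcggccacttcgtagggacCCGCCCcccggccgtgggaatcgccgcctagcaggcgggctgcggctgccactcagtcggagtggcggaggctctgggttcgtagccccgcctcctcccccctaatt
Both held the GC box once, and 32.7% of the 32851 promoters in the table held it at least once, searched on both strands. Neither held TATAAA (12.4% of promoters), ACAAAG (16.5%) or CAGATG (14.4%). The Epha7 stretch held 25 CG pairs and the Epha4 stretch 14, against a median of 6 over all promoters. A match is a description of letters and not of a bound site.

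Epha7 transcripts were split between a long form and a short one, and over the summed TPM the short one held the larger part. The mouse gene is known to make truncated receptors that lack the kinase domain, beside the full receptor. In RefSeq the short form (NM_001122889) has a coding sequence of 1833 bases and the long form (NM_010141) one of 2997 bases, of which 1798 are shared. The last 60 coding bases of each are shown, in GRCm38 on the plus strand of chromosome 4, with the bases that the other form lacks in capitals.
Epha7 short form: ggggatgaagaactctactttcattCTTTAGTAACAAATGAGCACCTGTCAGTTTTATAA
Epha7 long form: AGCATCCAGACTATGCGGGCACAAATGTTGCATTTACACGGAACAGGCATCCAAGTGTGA
The short form ends in 35 coding bases of its own, whereas all of the 60 bases shown for the long form are its own. The short form was at 0.49 to 797 TPM (median 282) in granule-lineage-like cells, 0 to 802 TPM (median 0) in astrocyte-like cells and 0 to 438 TPM (median 0.04) in oligodendrocyte-like cells. The long form was at 0 to 356 TPM (median 22.5), 0 to 312 TPM (median 0.59) and 0 to 94.5 TPM (median 1.45) in the same clusters. The short form held 82.2% of Epha7 TPM in granule-lineage-like cells, 78.9% in astrocyte-like cells and 75.4% in oligodendrocyte-like cells. Of the 20 granule-lineage-like cells, 17 held both forms and 16 held more of the short one. Of the 5 astrocyte-like cells with either form at 1 TPM or more, 3 held the long one alone and 2 held more of the short one. Cell 47, at 1.21 TPM of Epha7 in all, reached 1 TPM only as the sum of the forms and is not among them. Of the 19 oligodendrocyte-like cells with either form, 6 held the long one alone and 8 held more of the short one. These figures rest on how the estimator divided reads from the shared bases, which cannot be checked here.

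Other genes higher in granule-lineage-like cells were a semaphorin, a plexin, a neuropilin, an Unc5 receptor and a pair of Slits. Sema5a, a membrane-bound semaphorin, was in all 20 granule-lineage-like cells, at 10.01 to 307 TPM (median 92.1). It was in 6 of 11 astrocyte-like cells at a median of 1.64 TPM and in 25 of 33 oligodendrocyte-like cells at a median of 20.7 TPM, with maxima of 178 and 306 TPM. The difference was 2.43 for granule-lineage-like cells, with overlap at the upper end. Plxna4, a plexin that semaphorins bind directly or through neuropilins, was in 16 of 20 granule-lineage-like cells, at 0 to 251 TPM (median 18.0). It was in 4 of 11 astrocyte-like cells (median 0.44 TPM) and 16 of 33 oligodendrocyte-like cells (median 0.71 TPM), with maxima of 26.9 and 44.5 TPM. The granule-lineage-like mean lay 2.17 above the others.

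Nrp1, co-receptor for secreted semaphorins, was in 18 of 20 granule-lineage-like cells, at 0 to 301 TPM (median 34.3). It was in 8 of 11 astrocyte-like cells, at 0 to 228 TPM (median 4.80), and in 17 of 33 oligodendrocyte-like cells, at 0 to 159 TPM (median 1.42). The difference was 1.95 for granule-lineage-like cells, and 1 of these cells had no Nrp1 at all. The granule-lineage-like minus astrocyte-like difference of Nrp1 was 0.92, under the size counted. Unc5a, a repulsive netrin receptor, was in 13 of 20 granule-lineage-like cells, at 0 to 422 TPM (median 12.1), a difference of 1.81. It was also in 3 of 11 astrocyte-like cells (median 0 TPM) and 17 of 33 oligodendrocyte-like cells (median 1.89 TPM). Slit3, a secreted repellent for Robo receptors, was in 11 of 20 granule-lineage-like cells at up to 54.0 TPM, a difference of 1.13. It was in 1 of 11 astrocyte-like cells and in 8 of 33 oligodendrocyte-like cells. Its granule-lineage-like minus oligodendrocyte-like difference was 0.97, under the size counted. Slit1, named after its values were seen, was in 9, 0 and 3 cells of the clusters, a difference of 1.32. The Slit receptor Robo2 was in 10 of 20 granule-lineage-like cells, 3 of 11 astrocyte-like cells and 11 of 33 oligodendrocyte-like cells, with a difference of 0.81. Plxna2, the most widely detected plexin after Plxna4, was even across the clusters, in 12 of 20, 6 of 11 and 15 of 33 cells, with differences between -0.46 and 0.38. Plxnb2, another plexin, was in 10 of 20, 3 of 11 and 10 of 33 cells, with differences of 0.95, -0.14 and -0.74, all under the size counted.

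With the mixed libraries left out, the oligodendrocyte-like medians were 0.525 TPM for Nrp1, 0.105 TPM for Plxna4 and 0.945 TPM for Unc5a, each lower than over all 33 cells, and 24.1 TPM for Sema5a, which was higher. The differences for granule-lineage-like cells were then 1.82 for Nrp1, 2.90 for Plxna4, 2.38 for Unc5a and 2.69 for Sema5a.

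Depth classes gave the same directions. Within deeper libraries the differences of Epha7, Epha4, Sema5a, Nrp1, Plxna4 and Unc5a in granule-lineage-like cells ran from 1.16 to 3.30, and within shallower ones from 2.05 to 5.25. Between the classes, 5 of the 47 guidance genes were lower in deeper libraries (Dcc, Nrp1, Plxna2, Plxna4 and Sema5b, by 1.02 to 1.44), beside 5.54% of all genes, and none was higher, beside 8.24%. Within the 20 granule-lineage-like cells the levels of the widely detected guidance genes had Spearman correlations with the mean log2 level of early neuroblast markers between -0.37 (Sema5a) and 0.39 (Robo2), which over 20 cells that differ in depth is no finding.

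**Figure D3:**
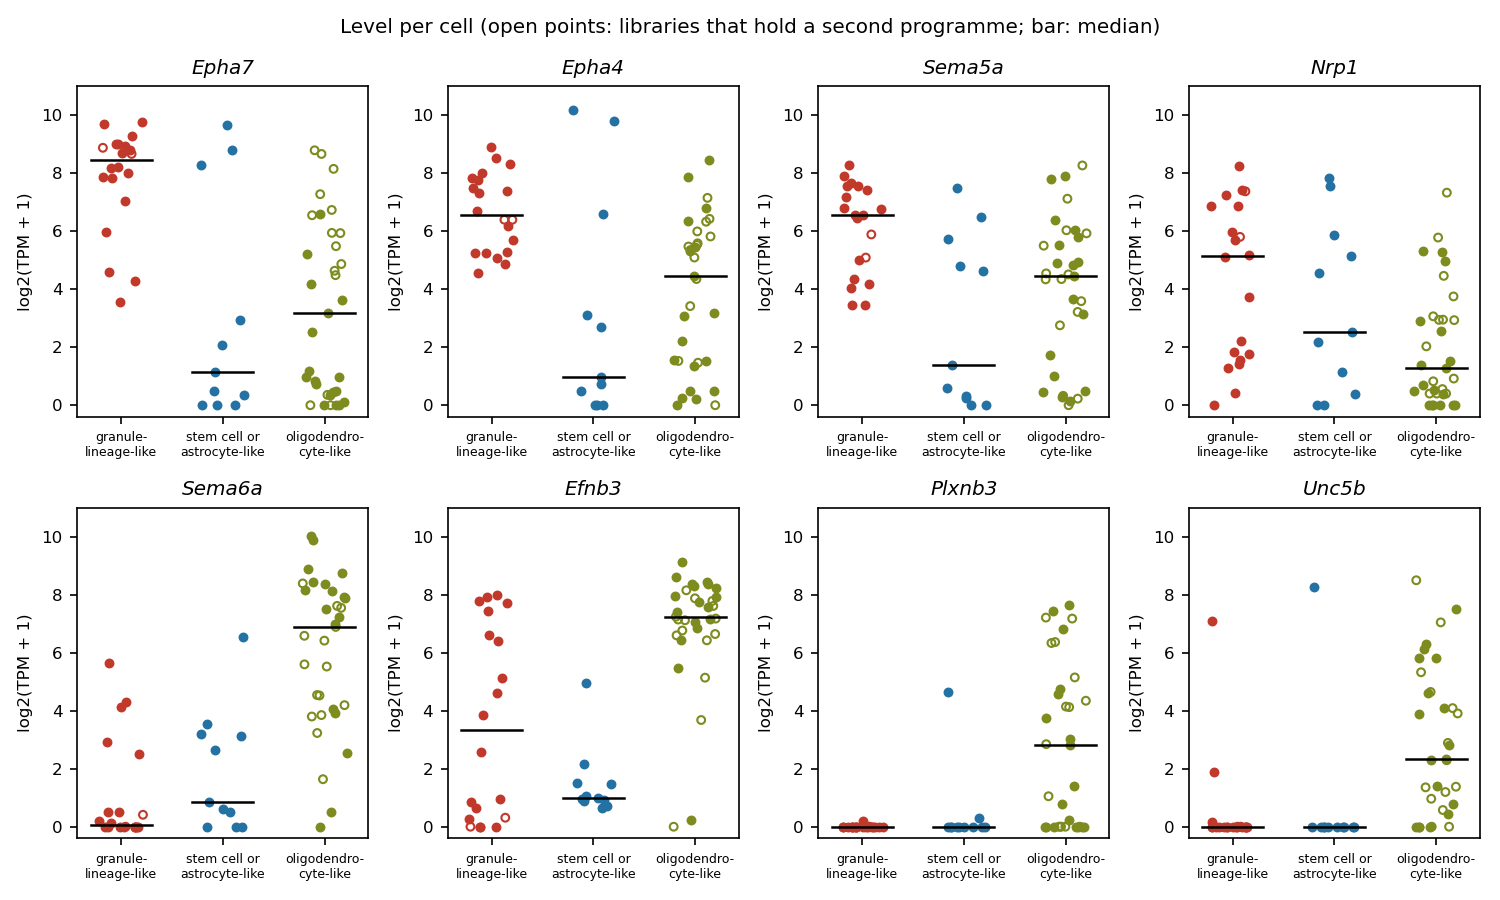
Level of 8 guidance genes in each of 64 cells as log2(TPM + 1), by cluster; open points are libraries with a second programme and bars are medians. The upper row (Epha7, Epha4, Sema5a, Nrp1) has its highest medians in granule-lineage-like cells and the lower row (Sema6a, Efnb3, Plxnb3, Unc5b) in oligodendrocyte-like cells.

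Oligodendrocyte-like cells carried another set, led by a transmembrane semaphorin and a B-type ephrin. Sema6a, a membrane-bound ligand of plexins, was in 31 of 33 oligodendrocyte-like cells (exact 95% interval 79.8% to 99.3%), at 0 to 1044 TPM (median 117). It was in 5 of 20 granule-lineage-like cells, at up to 48.8 TPM (median 0.045). It was in 5 of 11 astrocyte-like cells, at up to 92.2 TPM (median 0.80). The difference was 4.68 for oligodendrocyte-like cells, and most of them lay above every cell of the other clusters. Only cells 21 and 53 of the oligodendrocyte-like cluster fell short of 1 TPM, at 0.41 and 0 TPM. Without the mixed libraries the median was 236 TPM and the difference 5.18.

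Efnb3, an ephrin held in the membrane by a transmembrane segment, was in 31 of 33 oligodendrocyte-like cells, at 0 to 563 TPM (median 150). It was in 11 of 20 granule-lineage-like cells, at 0 to 250 TPM (median 9.20), and these cells were split, since 9 were below 1 TPM and 10 at 10 TPM or more. In the 11 astrocyte-like cells it was at 0.58 to 29.7 TPM (median 0.98), close to the value of a single read of this gene, which was 0.18 to 1.83 TPM by cell. The difference was 4.05 for oligodendrocyte-like cells and -4.13 for astrocyte-like cells. Without the mixed libraries the oligodendrocyte-like median of Efnb3 was 227 TPM and the difference 4.29. Myelin markers summed to 29.4 to 7677 TPM (median 184) in the granule-lineage-like cells, and their part in the Efnb3 of those cells was not tested. Sema6a and Efnb3 were detected together in 30 of 33 oligodendrocyte-like cells, 3 of 20 granule-lineage-like cells and 2 of 11 astrocyte-like cells.

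Among receptors, Plxnb3, Unc5b and Ephb1 were counted as higher in these cells. Plxnb3 and Unc5b passed the filter on detection only through this cluster, so their being counted is no independent support. Plxnb3, a plexin that binds Sema5a, was in 19 of 33 oligodendrocyte-like cells, at 0 to 197 TPM (median 5.99), a difference of 2.62. Without the mixed libraries it was in 9 of 18 oligodendrocyte-like cells, with a median of 1.17 TPM and a difference of 2.22. It was in 0 of 20 granule-lineage-like cells, which allows a share of up to 15%, and in 1 of 11 astrocyte-like cells, at 24.3 TPM. Unc5b, a repulsive netrin receptor, was in 23 of 33 oligodendrocyte-like cells, at 0 to 359 TPM (median 4.09), against 2 of 20 granule-lineage-like cells and 1 of 11 astrocyte-like cells, a difference of 2.42. Single cells of the other clusters could be high, with 134 TPM of Unc5b in cell 63 and 303 TPM in cell 68. Ephb1, a receptor for B-type ephrins, was in 23 of 33 oligodendrocyte-like cells, at 0 to 726 TPM (median 9.57), a difference of 1.85. It was also in 7 of 20 granule-lineage-like cells (median 0 TPM) and 6 of 11 astrocyte-like cells (median 1.36 TPM). Leaving out the mixed libraries gave differences of 2.41 for Unc5b and 2.54 for Ephb1.

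The promoters of Plxnb3 (chrX:73756853-73757102, plus strand) and Unc5b (chr10:60831582-60831831, minus strand) are shown because these receptors were detected in so few cells of the other clusters. The source and build are those given for the Epha4 and Epha7 stretches, and capitals mark the GC box GGGCGG or ACAAAG on either strand.
Plxnb3: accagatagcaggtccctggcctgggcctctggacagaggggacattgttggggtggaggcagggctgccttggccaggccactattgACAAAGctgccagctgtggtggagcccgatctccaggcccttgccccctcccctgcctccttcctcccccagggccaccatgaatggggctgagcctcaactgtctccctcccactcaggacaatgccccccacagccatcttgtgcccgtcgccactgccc
Unc5b: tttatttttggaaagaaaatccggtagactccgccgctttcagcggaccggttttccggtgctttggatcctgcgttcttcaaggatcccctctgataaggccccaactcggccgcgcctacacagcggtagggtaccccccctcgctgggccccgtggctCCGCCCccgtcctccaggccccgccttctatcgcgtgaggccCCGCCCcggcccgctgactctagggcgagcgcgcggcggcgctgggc
The Plxnb3 stretch held ACAAAG once, no GC box and 3 CG pairs. The Unc5b stretch held the GC box at 2 places and 27 CG pairs. GC content was 65.2% for Plxnb3 and 66.8% for Unc5b, so the stretches differed in CG pairs and hardly in GC content.

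Sema6d, a transmembrane semaphorin with plexins as receptors, was in 27 of 33 oligodendrocyte-like cells, at 0 to 277 TPM (median 28.5). It was in 12 of 20 granule-lineage-like cells at a median of 1.95 TPM and in 7 of 11 astrocyte-like cells at a median of 2.09 TPM, where cell 68 had the highest value of all, 423 TPM. The difference was 1.96. The oligodendrocyte-like median of Sema6d was 45.1 TPM without the mixed libraries and the difference 1.71. One of its 5 RefSeq transcripts (NM_199238) held 61.1% of Sema6d TPM in oligodendrocyte-like cells, 99.2% in granule-lineage-like cells and 95.5% in astrocyte-like cells. Sema4d, whose protein binds B-type plexins, was in 20 of 33 oligodendrocyte-like cells, at 0 to 1570 TPM (median 5.70), a difference of 1.30. It was in 7 of 20 granule-lineage-like cells (median 0.59 TPM) and 6 of 11 astrocyte-like cells (median 1.31 TPM). Of the astrocyte-like cells, 4 had 10 TPM or more, at up to 255 TPM. The astrocyte-like minus oligodendrocyte-like difference was -0.54, under the size counted. Sema4d was in 12 of 18 oligodendrocyte-like cells, with a median of 32.7 TPM and a difference of 2.09, once the mixed libraries were left out. Cell 35 held the highest Sema4d value of all cells and the highest Sema6a and Efnb3 values as well. Efna1, an A-type ephrin named after its values were seen, was in 11 of 33 oligodendrocyte-like cells, 3 of 20 granule-lineage-like cells and 0 of 11 astrocyte-like cells, at up to 1323 TPM, a difference of 1.51. Plxnb1, a Sema4d receptor, was in 12 of 33 oligodendrocyte-like cells and its difference was 0.26. Unc5c, another repulsive netrin receptor, was in 18 of 33 with a difference of 0.64.

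Within depth classes, Sema6a differed by 5.01 in deeper and 4.50 in shallower libraries, Efnb3 by 4.00 and 4.07, Unc5b by 2.51 and 2.45, Plxnb3 by 1.98 and 3.06, and Sema6d by 3.52 and 1.18. The 6 genes lower in oligodendrocyte-like cells than in all other cells were Epha4, Epha7, Nrp1, Sema4b, Sema5a and Sema5b. Epha4, Epha7 and Sema5a were not lower than in astrocyte-like cells alone (astrocyte-like minus oligodendrocyte-like -0.75, -0.25 and -1.06). For Sema4b and Sema5b the granule-lineage-like minus oligodendrocyte-like differences were 0.73 and 0.88, under the size counted. Within deeper libraries all 6 were lower by at least 1, but within shallower ones 4 were not, since Epha4 differed by -0.67, Sema4b by -0.80, Sema5a by -0.58 and Sema5b by -0.67.

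Inside the oligodendrocyte-like cluster, Epha7, Nrp1, Epha4, Unc5a and Sema5a were higher in cells with more granule-lineage marker signal. Plxna4, Slit1 and Slit3, detected in fewer than 50% of these cells, were not examined in this way. Across the 33 cells the Spearman correlation with the mean log2 level of 18 granule-lineage markers was 0.86 for Epha7, 0.66 for Nrp1, 0.56 for Epha4 and 0.50 for both Unc5a and Sema5a. It was -0.31 for Sema6a, -0.32 for Efnb3, -0.25 for Ephb1, -0.07 for Unc5b and 0.17 for Plxnb3. Epha7 and Nrp1 correlated with each other at 0.73, a pair picked after the values were seen. Within a cell both values share a library, its depth and any mixing of cells, so these values describe the libraries and carry no test. Epha4, Epha7 and Sema5a were detected together in 17 of 33 oligodendrocyte-like cells, against 20 of 20 granule-lineage-like cells and 3 of 11 astrocyte-like cells.

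**Figure D4:**
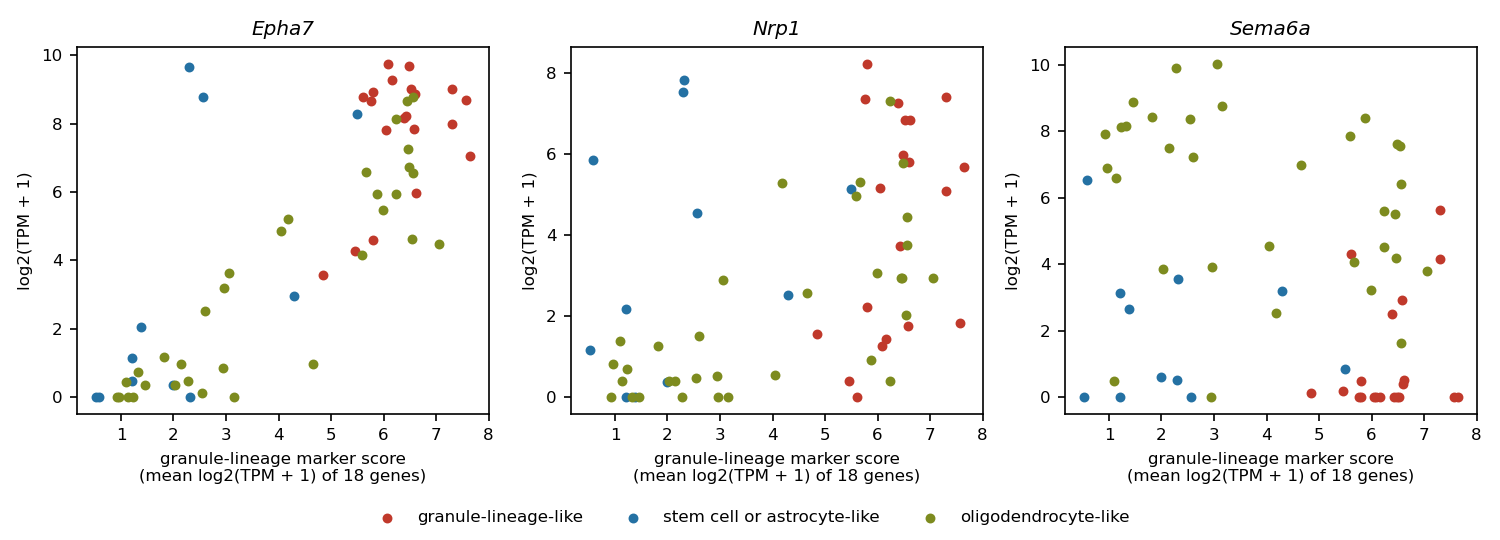
Level of Epha7, Nrp1 and Sema6a as log2(TPM + 1) against the granule-lineage marker score, the mean log2(TPM + 1) of 18 genes, with 1 point per cell and colours for the 3 clusters. Oligodendrocyte-like cells climb with the score for Epha7 (Spearman 0.86 over 33 cells) and Nrp1 (0.66), and for Sema6a they do not (-0.31).

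The astrocyte-like cells had no guidance gene in common at a high level, and the genes counted as higher there rested on few cells. Ephb3, a B-type Eph receptor, was at 487, 455 and 79.4 TPM in cells 47, 81 and 62 and at 0 in the other 8, against at most 3.62 TPM in granule-lineage-like and 8.90 TPM in oligodendrocyte-like cells, a difference of 2.01. Sema3c, a secreted semaphorin, was at 246, 206 and 68.7 TPM in cells 68, 57 and 80 and at 0 in the other 8, against detection in 3 of 20 granule-lineage-like and 1 of 33 oligodendrocyte-like cells, a difference of 1.67. Efna5, an A-type ephrin, was in 4 of 11 astrocyte-like cells, at up to 476 TPM, against 5 of 20 granule-lineage-like and 11 of 33 oligodendrocyte-like cells, a difference of 1.34. Sema4b, a transmembrane semaphorin, was detected more widely, in 10 of 11 astrocyte-like cells at 0.44 to 113 TPM (median 5.10), but only 4 had 10 TPM or more. Its granule-lineage-like minus astrocyte-like difference was -0.86, under the size counted. Sema4b was in 14 of 20 granule-lineage-like cells (median 4.36 TPM) and 18 of 33 oligodendrocyte-like cells (median 1.07 TPM). The groups overlapped widely, and the difference of astrocyte-like cells from all others was 1.32. Sema5b, which differed by 1.05, was in 6 of 11 astrocyte-like cells, 9 of 20 granule-lineage-like cells and 9 of 33 oligodendrocyte-like cells. Its granule-lineage-like minus astrocyte-like difference was -0.50, under the size counted.

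Individual cells of this cluster were far apart. Cells 43 and 79 had 4 and 6 guidance genes, and their early neuroblast markers summed to 1.83 and 9.15 TPM. In cells 47, 57, 68 and 80 the same markers summed to 2588, 4040, 2617 and 2868 TPM. Stem cell or astrocyte markers summed to only 5556 TPM in cell 47 and 4399 TPM in cell 68, against a cluster median of 30173 TPM. Single cells of the granule-lineage-like and oligodendrocyte-like clusters reached 17807 and 46035 TPM. The cluster name thus describes cells 47 and 68 poorly, and they held the highest Ephb3 (cell 47) and the highest Sema3c, Sema6d and Dcc (cell 68). Cell 57 had Epha4 at 1159 TPM and Epha7 at 805 TPM, above every oligodendrocyte-like cell for either gene. Whether the early neuroblast transcripts account for the guidance genes of these cells was not tested. Dcc, the attractive netrin receptor, was in 5 of 11 astrocyte-like cells, 10 of 20 granule-lineage-like cells and 7 of 33 oligodendrocyte-like cells, with the highest value, 79.3 TPM, in cell 68.

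Ligand and receptor transcripts were often found in the same cell. Of 62 ligand and receptor pairs known to bind, 19 had both transcripts in at least 10% of cells. Efnb3 and Epha4 were together in 39 of 64 cells, made up of 11 granule-lineage-like, 3 astrocyte-like and 25 oligodendrocyte-like cells. Efnb3 and Ephb1 were together in 28 cells, 22 of them oligodendrocyte-like. Sema5a and Plxna2 were together in 28 cells, 12 granule-lineage-like, 4 astrocyte-like and 12 oligodendrocyte-like. Sema6a was with Plxna4 in 22 cells and with Plxna2 in 21, of which 15 and 13 were oligodendrocyte-like. Sema5a and Plxnb3 met in 14 oligodendrocyte-like cells, 1 astrocyte-like cell and no granule-lineage-like cell. Without mixed libraries Efnb3 and Epha4 were together in 26 cells and Sema6a and Plxna4 in 12. The counts are limited by how widely each partner was detected, and whether they exceed what that alone would give was not tested. They give transcripts and not binding.

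**Figure D5:**
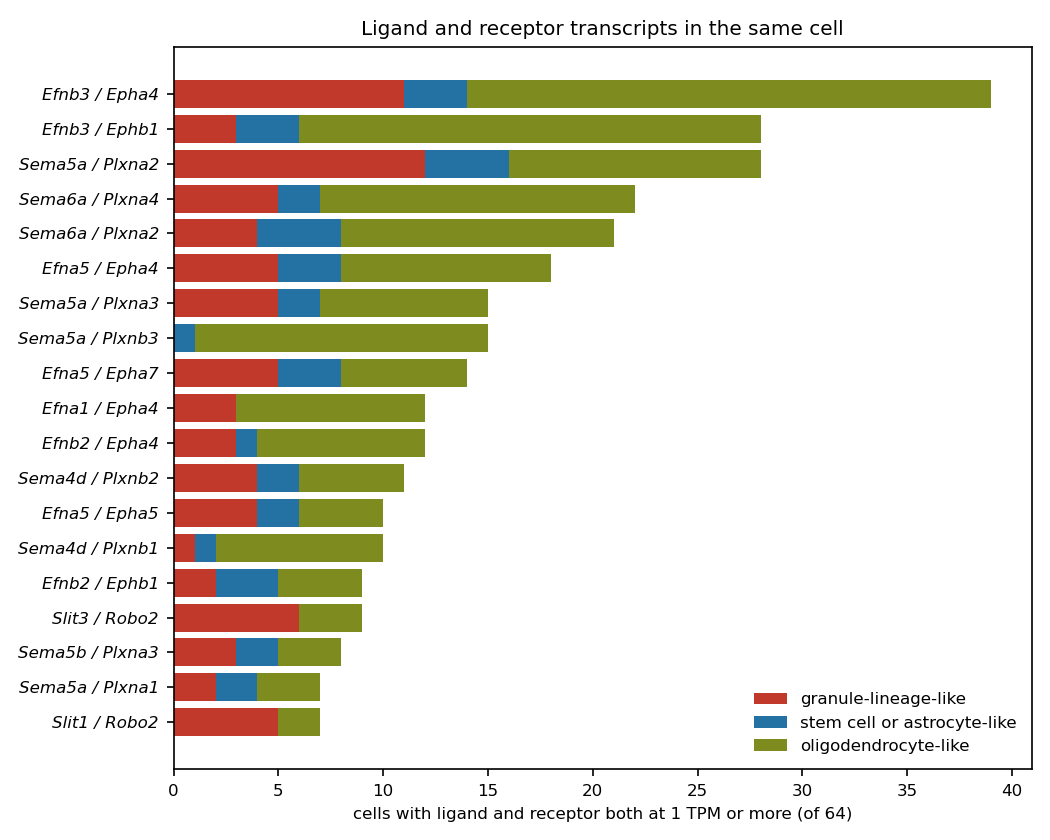
Number of the 64 cells in which a ligand and its receptor were both at 1 TPM or more, for the 19 pairs found together in at least 10% of cells, with bars split by cluster. Efnb3 with Epha4 leads with 39 cells, 25 of them oligodendrocyte-like, and Sema5a with Plxnb3 has no granule-lineage-like cell.

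Other genes of these pathways were read from 5 lists, 4 of signalling or actin genes and 1 of further cues and receptors. Of all 10732 genes that passed the filter, beside which the counts of each list are read, 21.5% were higher and 9.88% lower in granule-lineage-like cells, 9.12% and 28.7% in astrocyte-like cells, and 13% and 10.9% in oligodendrocyte-like cells. Of 17 genes of Eph and ephrin signalling, 14 passed the filter on detection, and 7 were higher and 0 lower in granule-lineage-like cells, 1 higher and 7 lower in astrocyte-like cells, and 1 higher and 7 lower in oligodendrocyte-like cells. The median difference of the 14 was 0.92, -1.01 and -0.91 in these clusters, beside 0.20, -0.45 and -0.06 for all genes. All 5 lists were chosen with earlier results of these data known, so their counts and medians describe the listed genes and are no independent support. Chn1, a Rac inhibitor that acts below Epha4, had a median of 1925 TPM in the 20 granule-lineage-like cells, against 373 TPM in the others (difference 3.39). Tiam1, a Rac activator, was in 19 of 20 granule-lineage-like cells and 17 of 44 others (difference 2.83). Abl1, a tyrosine kinase, was the list's highest in oligodendrocyte-like cells, in 17 of 33 against 8 of 31 others (difference 1.72).

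Of 19 genes of semaphorin signalling, 15 passed, and 3 were higher and 0 lower in granule-lineage-like cells, 1 higher and 4 lower in astrocyte-like cells, and 3 higher and 2 lower in oligodendrocyte-like cells. The shares higher in granule-lineage-like cells and lower in astrocyte-like cells were near those of all genes, and the median differences in the 3 clusters were -0.19, -0.55 and 0.23. Mical2, an actin-oxidising enzyme, had a median of 62.6 TPM in granule-lineage-like cells, against 5.23 TPM in the others (difference 2.61), and Crmp1, a collapsin response mediator, 85.1 TPM against 9.96 TPM (difference 2.16). The kinase gene Cdk5 was in all 33 oligodendrocyte-like cells at a median of 170 TPM, against 22.0 TPM in the others (difference 3.06), and in 5 of 11 astrocyte-like cells (difference -4.01).

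All 19 genes of Slit, Robo and netrin signalling passed, with 4 higher and 2 lower in granule-lineage-like cells, 1 higher and 6 lower in astrocyte-like cells, and 4 higher and 2 lower in oligodendrocyte-like cells. Here too the shares higher in granule-lineage-like cells and lower in astrocyte-like cells were near those of all genes, and the median differences in the 3 clusters were 0.41, -0.33 and -0.21. Trim9, a ubiquitin ligase that binds Dcc, had a median of 74.4 TPM in granule-lineage-like cells, against 11.6 TPM in the others (difference 2.00). Myo10, an unconventional myosin that carries netrin receptors in filopodia, was in all 11 astrocyte-like cells at a median of 37.04 TPM, against 28 of 53 others (difference 3.56). Dock1, a Rac activator below Dcc, had a median of 70.8 TPM in oligodendrocyte-like cells, against 12.0 TPM in the others (difference 2.10), and was lower in granule-lineage-like cells (difference -2.73).

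Of 11 actin effectors, 10 passed, with 2 higher and 1 lower in granule-lineage-like cells, 0 higher and 2 lower in astrocyte-like cells, and 2 higher and 0 lower in oligodendrocyte-like cells. In granule-lineage-like cells both shares were close to those of all genes, and the median differences in the 3 clusters were -0.25, -0.41 and 0.38. Cfl2, an actin-severing cofilin, had a median of 171 TPM in oligodendrocyte-like cells, against 14.4 TPM in the others (difference 3.27). Of 17 other guidance cues and receptors, 15 passed, with 5 higher and 3 lower in granule-lineage-like cells, 1 higher and 2 lower in astrocyte-like cells, and 2 higher and 5 lower in oligodendrocyte-like cells. The median differences in the 3 clusters were 0.51, -0.41 and -0.44. Cntn2, an adhesion molecule of the immunoglobulin superfamily, was in 22 of 33 oligodendrocyte-like cells and 2 of 31 others (difference 2.95). It passed the filter only through that cluster. Neo1, a receptor for netrins and repulsive guidance molecules, was in 24 of 33 and 15 of 31 (difference 1.81). Flrt3, a membrane protein that binds Unc5 receptors, was in 13 of 20 granule-lineage-like cells and 18 of 44 others (difference 1.85), and Dscam, a homophilic adhesion receptor, in 12 of 20 and 15 of 44 (difference 1.83).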

How the data were processed

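Per the labels' protocols, cells were caught on a Fluidigm C1 chip and libraries made with Nextera XT. The submitters' processing notes name Bowtie2, RSEM and the build mm9, with no versions. The deposited column is headed with RSEM's name for estimated counts, yet its values add up to 999999 to 1000001 in each cell, so they were read as the authors' TPM, and no count test was run.

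Transcript TPM were summed per symbol over 64 cells; 1037 of 30970 transcripts without a symbol (0.172% to 0.735% of the total per cell) were dropped, and 48 symbols that had become numbers were restored through the RefSeq table of GRCm38. Transcript lengths came from GENCODE on GRCm38 and promoters from RefSeq's GRCm38.p6 table, which matched 59 of the 69 members; no coordinates of the authors' build were used. Depth was read from the TPM value of 1 read in each cell over 14870 transcripts, where 74.8% to 85.0% of low values lay within 10% of a whole read.

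Clusters came from Ward's method (10 principal components, log2(TPM + 1), the 1000 most variable genes at 1 TPM in at least 7 cells, members and pathway genes excluded), with the count of clusters (2 to 6) set by silhouette and names set by marker lists with at least 3 markers in 50% of a cluster's cells. A second programme means a score for another cluster's list at or above percentile 25 of the cells in that cluster. No doublet caller was run. Differences are in mean log2(TPM + 1), pseudocount 1, counted from 1 up, which understates low genes. With all 64 cells in 1 labelled group, no p-values are given. Shares carry exact Clopper-Pearson intervals at 95%, and the limit on a count of 0 is 3 cells, both for counting error only. Alternatives were other pseudocounts, filters, numbers of variable genes, detection levels, libraries without a second programme and either depth class.

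The members, gene lists and pairs were chosen with earlier results of these data known. The 26 members described gene by gene were the 24 detected in most cells and the 4 with the largest difference each way in each cluster; of each pathway list, the 2 extremes each way per cluster were eligible. Whether counting used strand is not given in the sources used here: Ephb1, Plxna4, Plxnb1, Unc5a and Unc5c share 34 to 257 exon bases with a gene on the opposite strand. Efna5 rests on 1 short transcript model, so its level is not set against other genes. Code ran in Python 3.11.15 with numpy 2.4.6, pandas 2.3.3, scipy 1.17.1 and scikit-learn 1.9.0, and was tested on simulated data.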

Additional observations from a re-analysis of the deposited data

How the results depend on the processing

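The 3 clusters held the same cells when all genes were allowed in the clustering. The split depended on other settings. The silhouette was 0.262 for 3 clusters and 0.248 to 0.252 for 2, 4, 5 and 6, a small margin. With the 2000 most variable genes the clusters held 20 granule-lineage-like, 14 stem cell or astrocyte-like and 30 oligodendrocyte-like cells. The main sizes were 20, 11 and 33. Members lower in stem cell or astrocyte-like cells then numbered 9 (19.1%, beside 30.8% of all genes), against 12 (25.5%, beside 28.7%) in the main setting. With the 500 most variable genes no granule-lineage-like cluster formed and 31 cells were stem cell or astrocyte-like; by that construction Epha7 (2.62), Epha4 (1.12), Plxna4 (0.94), Sema5a (0.77), Unc5a (0.60) and Slit3 (0.33) became higher there. With pseudocount 0.1, 14 members (29.8%, beside 31.8% of all genes) were higher and 12 (25.5%, beside 16.5%) lower in granule-lineage-like cells. In oligodendrocyte-like cells 12 (25.5%, beside 18.5%) were then lower. With pseudocount 10, 4 (8.51%, beside 3.96% of all genes) were lower in granule-lineage-like cells. In stem cell or astrocyte-like cells 1 (2.13%, beside 4.42%) was higher and 3 (6.38%, beside 11.1%) lower. In oligodendrocyte-like cells 4 (8.51%, beside 5.43%) were higher and 3 (6.38%, beside 3.17%) lower. With genes in at least 25% of cells, 3 of 26 (11.5%, beside 9.47% of all genes) were higher in stem cell or astrocyte-like cells. Without mixed libraries, and in deeper libraries alone, 10 (21.3%) were lower in oligodendrocyte-like cells, beside 20.6% and 30.7% of all genes. Pairs found together in 10% of cells numbered 31 above 0, 12 at 5 TPM and 11 at 10 TPM, and 30 members reached 10% of cells at 10 TPM. The cause was not tested for the counts with 2000 variable genes, without mixed libraries and in deeper libraries. The other counts moved with the pseudocount, filter or threshold itself. In all, 85 such values and 706 single-gene differences kept their direction and size within the limits set, and 10 single-gene differences moved. Deeper libraries hold 1 stem cell or astrocyte-like cell, so that setting gave no value for the cluster. No paired analysis was possible because the labels give 1 group. At this depth 1 TPM can be less than 1 read in the shallowest cells (1.83 TPM per read for Efnb3), so absence there is not shown.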
